A study of Mus musculus with 12 samples.

Results

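Of 38 genes of DNA repair and DNA damage signalling, 4 rose and 4 fell in wild-type (WT) mouse hearts after doxorubicin (DOX), and no member passed the test for DOX in the hearts labelled knockout (KO). The share that passed in WT hearts, 8 of 38 (21.1%), was near that of all genes tested (18.6%), and in KO-labelled hearts 0.0136% of all genes passed. The genes were listed by name from known repair and signalling roles. The rule itself used no measured value, but earlier results of these data were known when the list was made. All 38 were found among the 55453 gene symbols counted, and all 38 passed the filter on low counts that left 14757 genes for testing. Cells keep their genome intact with several repair systems. Kinases such as ATM, ATR and DNA-PKcs sense breaks or stalled replication and start a signalling cascade, homologous recombination and end joining repair double-strand breaks, and excision pathways replace damaged bases or distorted stretches of a strand. DOX is an anthracycline that poisons topoisomerase II and breaks DNA, and its use in cancer treatment is limited by injury to the heart, a tissue whose muscle cells seldom divide.

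The libraries came from the hearts of C57BL/6J mice in 4 groups of 3: PDE10A-WT mice given vehicle (mice 1, 2 and 3) or DOX (21, 22 and 24), and PDE10A-KO mice given vehicle (veh_3393, veh_3394 and veh_3395) or DOX (18, 19 and 20). DOX was given as 1 dose of 15 mg/kg into the abdominal cavity and followed for 7 days. PDE10A is a phosphodiesterase that degrades cyclic nucleotides, and the design asks what DOX does to the heart with and without it. The treatment text also describes TP-10, a PDE10A inhibitor given with a vehicle of DMSO and cyclodextrin, which no library used here carries as a label. Ages are not in the labels, and the protocol speaks of male or female mice. It gives no detail of the allele behind the knockout.

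Library totals ran from 23846398 to 32921876 counts. Counts of Pde10a, the targeted gene, went against the labels. They stood between 8.27 and 11.9 CPM, the count of a gene scaled to the total of its library, in the 6 libraries labelled KO and between 1 and 3.38 CPM in the 6 labelled WT. Genotypes are therefore named as labelled, and any direction given between KO and WT depends on those labels. The 8 cardiomyocyte markers summed to between 60500 and 81300 CPM, and none was at 0 in any library. WT vehicle mouse 2 stood apart from mice 1 and 3 of its group (chi-square of 156 and 94.2 per gene, against 17.6 between mice 1 and 3). To a lesser degree WT DOX mouse 21 stood apart from mice 22 and 24 (70.7 and 73.6 per gene, against 37.4 between mice 22 and 24). The most atrial transcripts were found in KO DOX mouse 18 (1590 CPM over 4 markers) and in veh_3394 of the KO vehicle group (2140 CPM). In the other 10 libraries that sum lay between 61.8 and 259 CPM.

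Since 4 members fell after DOX in WT hearts, the promoters of those with a RefSeq entry are shown first, from 250 bases before to 50 bases after the annotated start in GRCm38.p6. They were read for 2 kinds of short word. E2F factors, which switch on replication and repair genes in dividing cells, bind words that include TTTCCCGC, TTTCGCGC, TTTGCCGC and TTTGGCGC, and TTTGAA is the core of the cell cycle homology region found at genes of late cell cycle phases. All words were sought on both strands, and a promoter counted once however many it held. The windows of Chek2 (chr5:110839733-110840032), Fance (chr17:28313280-28313579) and Ercc2 (chr7:19381767-19382066) are on the plus strand, and capitals mark an E2F word.
Chek2: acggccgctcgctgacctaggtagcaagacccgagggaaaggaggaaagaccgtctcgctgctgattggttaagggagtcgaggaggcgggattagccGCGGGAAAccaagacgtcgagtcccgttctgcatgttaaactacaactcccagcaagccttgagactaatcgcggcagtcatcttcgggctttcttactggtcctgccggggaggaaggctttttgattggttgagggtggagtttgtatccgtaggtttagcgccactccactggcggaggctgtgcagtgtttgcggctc
Fance: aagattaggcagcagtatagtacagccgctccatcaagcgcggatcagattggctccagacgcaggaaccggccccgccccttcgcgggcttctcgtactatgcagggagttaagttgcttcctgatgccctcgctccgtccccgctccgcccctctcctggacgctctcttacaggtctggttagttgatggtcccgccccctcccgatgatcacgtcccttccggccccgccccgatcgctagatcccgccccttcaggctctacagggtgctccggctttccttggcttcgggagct
Ercc2: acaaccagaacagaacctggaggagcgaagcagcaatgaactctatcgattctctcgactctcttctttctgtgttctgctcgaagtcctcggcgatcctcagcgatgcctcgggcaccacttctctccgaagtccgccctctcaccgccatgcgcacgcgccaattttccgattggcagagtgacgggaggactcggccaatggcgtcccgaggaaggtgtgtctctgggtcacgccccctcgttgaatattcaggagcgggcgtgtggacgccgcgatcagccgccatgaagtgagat
The Chek2 window held TTTCCCGC on the strand opposite the gene, at -152 relative to the start. Those of Fance and Ercc2 held none of the words. Hscb starts 202 bases from the Chek2 start on the other strand in GENCODE M21, so the printed window lies between and around both genes. Of the 38 members, 32 matched an entry by symbol, and 8 of them (25%) held an E2F word, against 2.6% of 27025 genes and 2.26% of 32851 promoters in the table. The 8 were Chek2, Mdc1, Brca2, Bard1, Rad51c, Xrcc6, Lig1 and Msh6. Of these only Chek2 passed the test for DOX in WT hearts. TTTGAA stood in 1 of the 32 members (3.12%, Bard1), against 20.2% of genes. Of 21 cycling-cell marker genes in the table, 6 (28.6%) held an E2F word and 9 (42.9%) held TTTGAA. A match describes letters and is not a measured binding site.

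The members were expressed at very different levels. Per kilobase of merged exons, averaged over 12 libraries, the highest were Parp1 (10.1 CPM per kb), Nbn (9.86), Apex1 (9.84), Xrcc5 (8.78) and Ercc1 (7.48). These encode PARP1, which binds strand breaks and builds poly(ADP-ribose), NBS1 of the MRN break sensor, the endonuclease that cuts at abasic sites, the Ku80 subunit of the end-joining clamp, and a subunit of the nuclease that cuts 5′ of a lesion in excision repair. The lowest were genes of homologous recombination and the Fanconi anaemia pathway, along with the replication checkpoint kinase gene Chek1 (0.107 CPM per kb, 8 to 19 counts a library). Brca1, a scaffold of homologous recombination, stood at 0.0387 CPM per kb with 5 to 14 counts a library. Fancd2, which marks crosslinked DNA, stood at 0.0378 CPM per kb with 2 to 17 counts. Differences in these low genes were hardly detectable at this depth. The exon lengths join every annotated transcript, so a gene with many retained-intron transcripts, such as Atr with 23629 bases, has its level per kb understated. Summed over the 38 genes the level differed little between libraries. It lay between 378 and 393 CPM in WT vehicle and between 400 and 420 CPM in WT DOX libraries. In KO vehicle libraries it was 388 to 406 CPM, and in KO DOX libraries 407 to 416 CPM. Under both genotype labels every DOX library lay above every vehicle library.

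**Figure D1:**
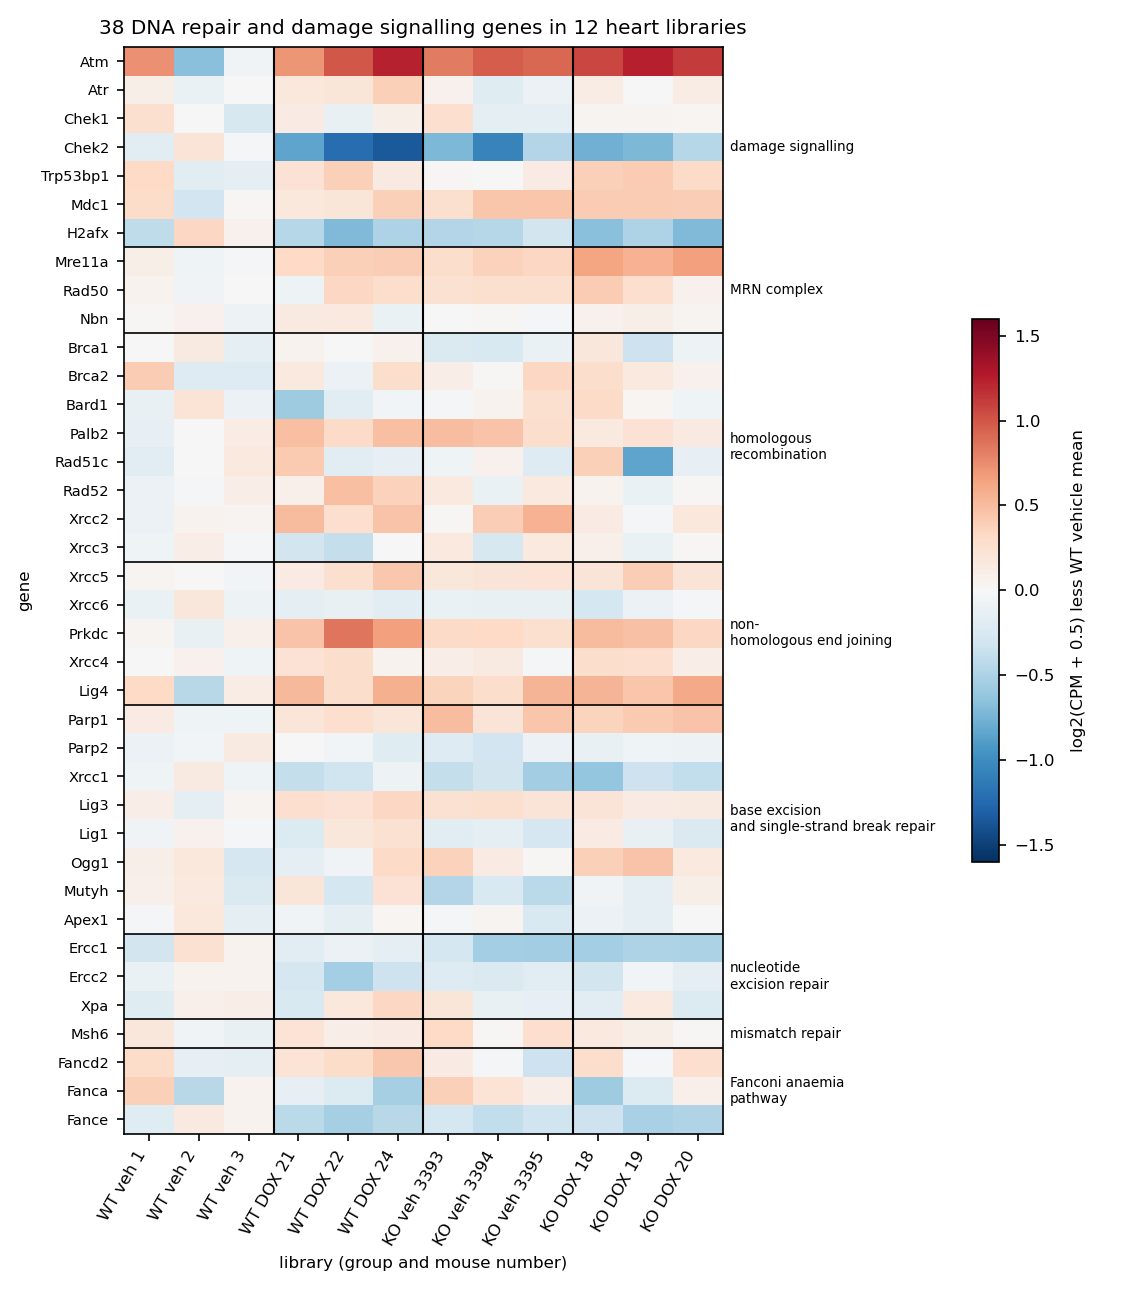
Each row is 1 of the 38 genes, ordered by role, and each column is 1 library, named by group and mouse number. Colour gives log2(CPM + 0.5) less the mean of the 3 WT vehicle libraries, red for higher and blue for lower. Atm and Chek2 have the deepest colours.

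In WT hearts 8 of 38 members (21.1%) passed the threshold for DOX against vehicle by edgeR's quasi-likelihood test with Benjamini-Hochberg adjustment, where 18.6% of all 14757 genes did. Higher were 4 members (all genes, 9.39%) and lower were 4 (all genes, 9.2%), so the share was near the background in both directions. The members' median log2 fold change was 0.10, with 26 positive and 12 negative values, and that of all genes was 0. In 14 members (36.8%) the WT DOX and WT vehicle libraries did not overlap, against 32.6% of all genes, and 16 (42.1%) had an unadjusted p below 0.05, against 36.1%. Damage signalling had the most with 3 of 7, end joining 1 of 5, the MRN complex 1 of 3, base excision and single-strand break repair 1 of 8, nucleotide excision repair 1 of 3 and the Fanconi anaemia pathway 1 of 3. None of 8 homologous recombination genes passed, nor did Msh6, the mismatch recognition gene, but 3 of those 8 had an unadjusted p below 0.05. Under DESeq2 the count was also 8 of 38, and under limma-voom 13, where more of all genes passed than by edgeR too (counts at the end). A fit of the 6 WT libraries alone called 0 members and 20 genes in all. Without WT vehicle mouse 2, the library furthest from its group, or mouse 3, 2 of 38 passed (Prkdc and Chek2), and without WT DOX mouse 22 or 24 only Prkdc did. Without WT vehicle mouse 1, 12 passed, and without WT DOX mouse 21, 9 did. Over all genes the count also changed widely when 1 library was left out (range at the end). The swings are thus not particular to the members. Without TMM scaling (a correction of library totals for their makeup), 4 members were higher and 2 lower, and over all genes 1845 were higher and 941 lower, against 1386 and 1357 with it. The 2 that missed without it were H2afx (adjusted p = 0.0618) and Ercc2 (0.0538).

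Among the signalling genes Chek2 and Atm moved in opposite directions. Chek2 encodes CHK2, the checkpoint kinase that ATM activates after double-strand breaks. It stood at 3.96, 5.35 and 4.52 CPM in WT vehicle mice 1, 2 and 3 and at 2.34, 1.67 and 1.5 CPM in WT DOX mice 21, 22 and 24. The groups did not overlap, and Chek2 fell by 1.33 on the log2 scale (SE 0.23, adjusted p = 0.0101). It passed in 10 of 12 fits that each left out 1 library and missed without WT DOX mouse 22 (adjusted p = 0.0509) or 24 (0.0517). Atm, the kinase at the head of the break response, had 5.08, 1.62 and 2.74 CPM in WT vehicle and 5.00, 6.23 and 7.40 CPM in WT DOX mice. WT vehicle mouse 1 lay above WT DOX mouse 21, so the groups overlapped. Atm rose by log2 1.00 (SE 0.30, adjusted p = 0.0396), but passed in 3 of 12 leave-one-out fits. Its log2 value was 1.52 without WT vehicle mouse 1 and 0.68 without mouse 2 (adjusted p = 0.106). The call was also lost without WT vehicle mouse 3, WT DOX mouse 22 or 24, KO DOX mouse 19 or 20, or any KO vehicle mouse, with adjusted p-values up to 0.137.

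H2afx encodes histone H2AX, whose phosphorylated form marks chromatin around a break. Its levels were 4.14, 7.29 and 5.99 CPM in WT vehicle and 3.99, 3.28 and 3.89 CPM in WT DOX mice. The lowest vehicle library and the highest DOX library nearly met. H2afx fell by 0.65 on the log2 scale (SE 0.19, adjusted p = 0.0386), and without WT vehicle mouse 2, the highest library, the value was -0.45 (adjusted p = 0.154). It passed in 4 of 12 leave-one-out fits and missed also without WT vehicle mouse 3, WT DOX mouse 22 or 24, any KO vehicle mouse or KO DOX mouse 20. H2AX messages exist with and without a poly(A) tail, and these libraries were built from poly(A) RNA. The sum of the 26 cycling-cell markers was also lower after DOX in WT hearts, at 80.7 to 109 CPM in WT vehicle and 67.8 to 75.8 CPM in WT DOX libraries. Of the 21 tested, 7 fell and 0 rose, and Pbk and Ccnb1 were at 0 in WT DOX mouse 21, Ccnb1 in mouse 22 and Pbk in mouse 24. Ccnb1 was also at 0 in WT vehicle mouse 1. In KO vehicle libraries the marker sum was 82.7 to 92.1 CPM, where Chek2 had 1.92 to 3.16 CPM and H2afx 3.95 to 4.52 CPM. In KO DOX libraries the sum was 80.3 to 80.7 CPM, with Chek2 at 2.48 to 3.20 CPM and H2afx at 3.28 to 3.88 CPM. Among the 21 tested markers, 17 had negative and 4 positive log2 values for KO against WT under vehicle (median -0.27). For DOX in KO-labelled hearts 19 were negative and 2 positive (median -0.17). None passed in either comparison. The part of cycling cells in the H2afx or Chek2 result was not tested, and fewer cells of a type cannot be told apart from less RNA per cell in whole hearts.

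The other signalling members did not pass. Atr, the kinase of stalled replication forks, stood at 14.5, 12.6 and 13.6 CPM in WT vehicle and 15.2, 15.6 and 17.8 CPM in WT DOX mice (log2 0.26, SE 0.11, adjusted p = 0.108). Every DOX library lay above every vehicle library, but with exon length and GC content taken out of each library the value was -0.08 (adjusted p = 0.703). The Atr length used there, 23629 bases, joins every annotated transcript, so the size of that shift is uncertain. Chek1, the kinase ATR activates, had 0.668, 0.484 and 0.317 CPM against 0.575, 0.4 and 0.547 CPM, with a 95% interval of the log2 difference from -0.70 to 0.83. Trp53bp1, whose product 53BP1 steers breaks towards end joining, had 28.6, 20.2 and 20.6 CPM against 27.0, 29.8 and 25.4 CPM (log2 0.24, adjusted p = 0.183). Mdc1, the reader of phosphorylated H2AX, had a log2 value of 0.24 (adjusted p = 0.226). Transcript of Trp53, the p53 gene that this cascade acts on, had a log2 value of -0.27 (SE 0.11, adjusted p = 0.0871). Cdkn1a, a p53 target that encodes the cell cycle inhibitor p21, rose after DOX in WT hearts, from 44.5 ± 12.3 to 129 ± 47.2 CPM (SD, n = 3; log2 1.53, SE 0.31, adjusted p = 0.0155). In KO-labelled hearts its level was 17.3 ± 6.52 CPM under vehicle against 26.4 ± 5.97 CPM after DOX (SD, n = 3; log2 0.61, adjusted p = 0.997). The difference between those effects did not pass (log2 -0.93, SE 0.44, adjusted p = 0.322).

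**Figure D2:**
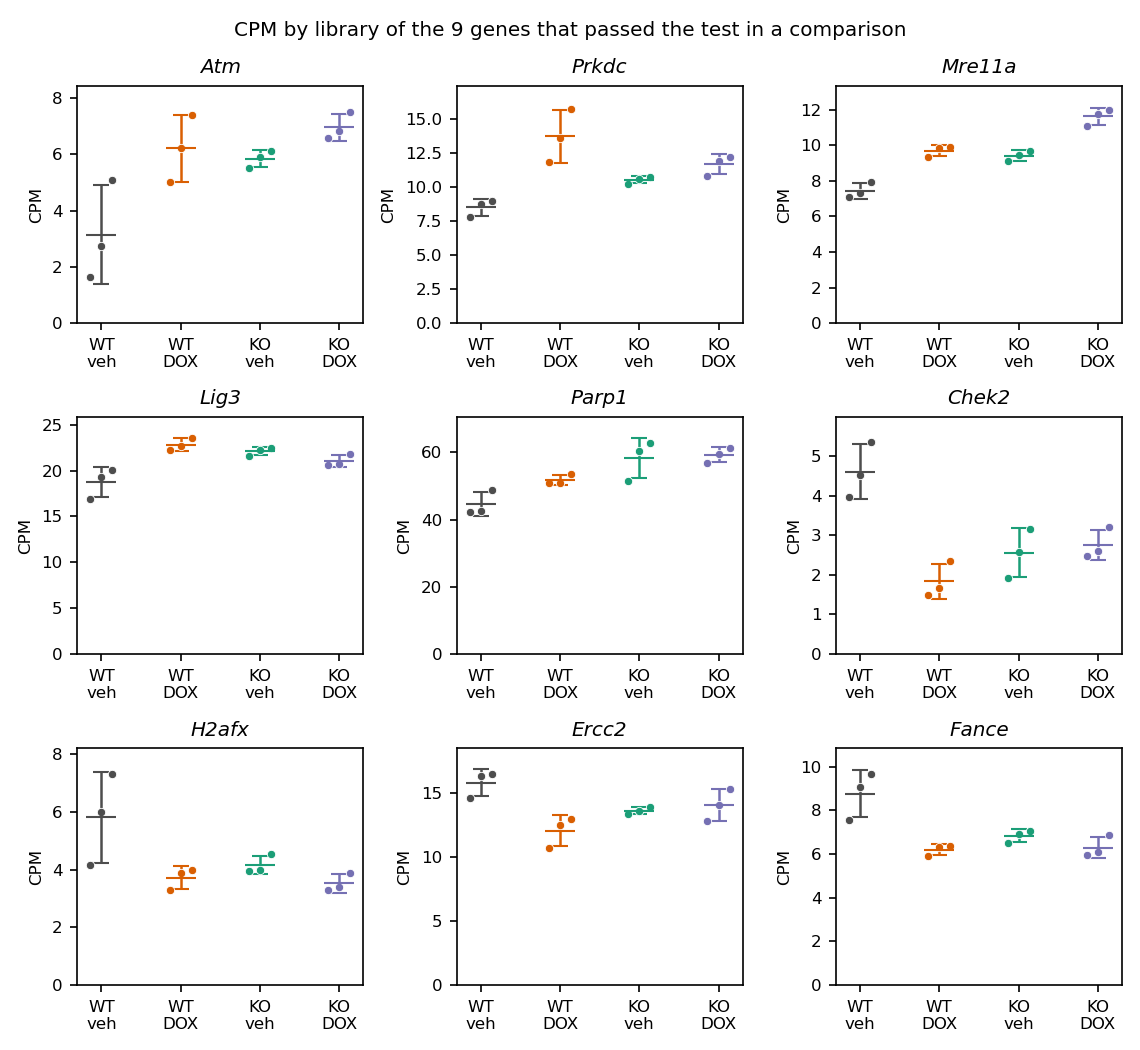
CPM on a linear axis from 0 in each of 12 libraries for the 9 genes that passed the threshold in a comparison. Points are libraries, the long bar is the group mean and the whiskers are 1 SD over 3 mice. For Chek2, H2afx, Fance and Ercc2 the 3 WT vehicle points lie above all WT DOX points. For Prkdc, Mre11a, Lig3 and Parp1 they lie below, and for Atm they overlap.

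In the genes that handle broken ends, Prkdc and Mre11a rose. Prkdc encodes DNA-PKcs, the kinase that Ku recruits to a break for end joining. It stood at 8.73, 7.74 and 8.97 CPM in WT vehicle and at 11.8, 15.7 and 13.6 CPM in WT DOX mice. The groups were well apart, and the log2 difference was 0.69 (SE 0.12, adjusted p = 0.0102). Prkdc passed in all 12 leave-one-out fits, with adjusted p-values up to 0.0472. Mre11a encodes the nuclease of the MRN complex, which tethers and trims ends and activates ATM. It stood at 7.93, 7.08 and 7.30 CPM against 9.35, 9.83 and 9.93 CPM, without overlap (log2 0.39, SE 0.10, adjusted p = 0.0236). It missed when WT vehicle mouse 2 (adjusted p = 0.0673) or 3 (0.0708), or when WT DOX mouse 22 (0.0803) or 24 (0.0799), was left out. Its partners Rad50 (log2 0.20, adjusted p = 0.296) and Nbn (0.07, adjusted p = 0.607) did not pass. In end joining, Xrcc5 (log2 0.29, adjusted p = 0.0584) and the ligase gene Lig4 (0.47, adjusted p = 0.0932) had positive values, Xrcc4, the ligase's partner, had 0.21 (adjusted p = 0.213), and Xrcc6, which encodes Ku70, had -0.16 (adjusted p = 0.27).

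In homologous recombination the 8 log2 values ran from -0.47 (Bard1) to 0.70 (Palb2). Xrcc2 stood at 5.70, 6.39 and 6.31 CPM in WT vehicle and at 8.88, 7.46 and 8.58 CPM in WT DOX mice (log2 0.44, SE 0.15, adjusted p = 0.0592). Rad52, which anneals single strands, had 6.10, 6.42 and 7.06 CPM against 6.90, 9.32 and 8.55 CPM (log2 0.34, SE 0.14, adjusted p = 0.103). Palb2, which links BRCA1 to BRCA2, had no overlap between the groups and an adjusted p = 0.065, on 11 to 35 counts over all libraries. Brca1 had 0.356, 0.449 and 0.278 CPM against 0.395, 0.364 and 0.403 CPM, and its 95% interval ran from -0.71 to 0.90 on the log2 scale. Brca2 (0.13), Rad51c (0.07) and Xrcc3 (-0.36) had adjusted p-values of at least 0.385.

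Lig3 was the member of base excision and single-strand break repair that rose. It encodes DNA ligase III, which seals nicks with XRCC1 and is the ligase of mitochondria. It stood at 20.1, 16.9 and 19.3 CPM in WT vehicle and at 22.7, 22.2 and 23.6 CPM in WT DOX mice, without overlap (log2 0.28, SE 0.09, adjusted p = 0.0456). It passed in 1 of 12 leave-one-out fits, that without WT vehicle mouse 1 (adjusted p = 0.0227), and had adjusted p-values up to 0.136 in the other 11. Parp1 had 48.8, 42.6 and 42.4 CPM in WT vehicle and 50.9, 53.5 and 51.0 CPM in WT DOX mice. These did not overlap, yet the gene missed the threshold (log2 0.22, SE 0.09, adjusted p = 0.12). Xrcc1, the scaffold of this pathway, lay lower in every WT DOX library than in any WT vehicle library (log2 -0.26, adjusted p = 0.138). Mutyh, which removes adenine paired with oxidised guanine, had 1.78, 1.90 and 1.35 CPM against 1.98, 1.27 and 2.04 CPM (log2 0.08, adjusted p = 0.841). The remaining 4 had log2 values of -0.08 (Parp2), 0.09 (Lig1), 0.04 (Ogg1) and -0.07 (Apex1), with adjusted p-values of at least 0.619.

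Ercc2 and Fance fell. Ercc2 encodes XPD, the TFIIH helicase that opens the strand around a bulky lesion. It stood at 14.6, 16.5 and 16.3 CPM in WT vehicle and at 13.0, 10.7 and 12.5 CPM in WT DOX mice (log2 -0.39, SE 0.11, adjusted p = 0.031). Fance, a core subunit of the Fanconi ligase complex that answers crosslinks, stood at 7.57, 9.67 and 9.05 CPM against 6.36, 5.90 and 6.31 CPM (log2 -0.50, SE 0.12, adjusted p = 0.0216). In both genes the groups did not overlap. Both missed when either of WT vehicle mice 2 and 3, or either of WT DOX mice 22 and 24, was left out, with adjusted p-values up to 0.118 for Ercc2 and 0.0834 for Fance. Ercc1 had 22.7, 33.0 and 29.0 CPM against 24.6, 26.1 and 25.1 CPM (log2 -0.16, adjusted p = 0.381), and Xpa, the damage verification gene, had 0.10 (adjusted p = 0.717). Fancd2 had 0.401, 0.173 and 0.159 CPM against 0.359, 0.4 and 0.490 CPM (log2 0.80, 95% interval -0.22 to 1.82), and Fanca had -0.45 (adjusted p = 0.336). Exons of Klc3 and Gm26852 on the other strand cover 42.4% of Ercc2's exon bases, and those of Rffl cover 25.1% of Lig3's. How strand was used in counting is not given in the sources used here, so these 2 results are uncertain, as are the levels of Apex1 (61.7% covered) and Trp53bp1 (15%).

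The members that rose were long and those that fell were shorter. Exon length was 5927 to 13187 bases and GC content 42.6% to 48.9% in the 4 that rose, against 1384 to 4170 bases and 46.4% to 62.3% in the 4 that fell. Across the 38 members the Spearman correlation of the log2 change with exon length was 0.53 and with GC content -0.561, and across 14680 genes they were 0.352 and -0.236. These are across genes that share the same libraries, and genes are not independent replicates. The median log2 change of all genes went from -0.36 in the shortest decile to 0.24 in the longest. By library, the longest genes (top 20%) less the shortest (bottom 20%), on the log2 scale, stood at -0.67 for WT vehicle mouse 2, at -0.27 for mouse 3 and at -0.01 for mouse 1. It lay between 0.01 and 0.20 in WT DOX and between 0.01 and 0.16 in the KO-labelled libraries. The lowest value of WT DOX was that of mouse 21 (0.01), and the lowest of KO vehicle was that of veh_3393 (0.01). These libraries and WT vehicle mice 2 and 3 are the ones whose titles lack a suffix 1 that the others carry. What the suffix means is not given, and its part in the trend was not tested. When the trend with length and GC was taken out of each library, a fit chosen after seeing the data, 2 members passed. These were Chek2 (log2 -1.31, adjusted p = 0.0116) and Prkdc (0.41, adjusted p = 0.038), and 1593 genes passed in all. Atm had 0.79 (adjusted p = 0.0604), Mre11a 0.26 (0.0823), Fance -0.28 (0.105), Ercc2 -0.26 (0.163), Lig3 0.14 (0.245) and H2afx -0.23 (0.341). A trend of real expression and one of RNA or library quality cannot be told apart from these counts.

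**Figure D3:**
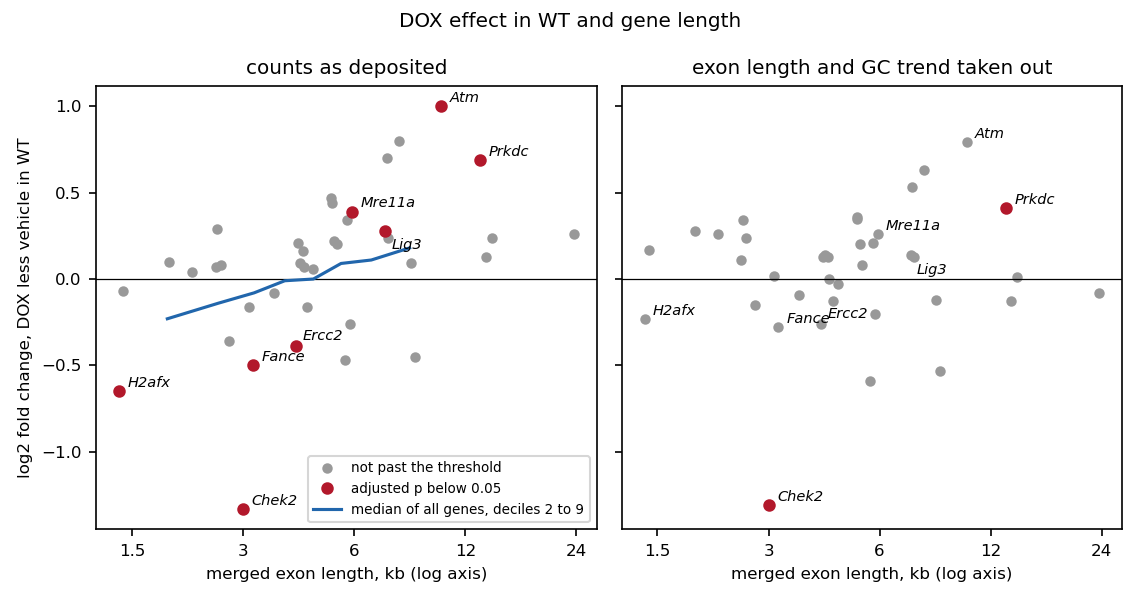
Log2 change of DOX less vehicle in WT hearts against merged exon length on a log axis, 1 point a gene for the 38 members. Red points had an adjusted p below 0.05, the blue line is the median of all genes in length deciles 2 to 9, and the right panel has the length and GC trend of each library taken out. Chek2 and Prkdc are the 2 red points on the right, against 8 on the left.

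Neighbours that start close by on the opposite strand were measured too, whether or not they share a promoter. Of the members, 15 have a gene on the opposite strand whose start lies within 1000 bases. Npat, a histone gene regulator that starts 307 bases from Atm, also rose after DOX in WT hearts (log2 0.79, SE 0.23, adjusted p = 0.0379), from 5.36 ± 2.28 to 9.18 ± 0.927 CPM (SD, n = 3). Its value was 0.51 without WT vehicle mouse 2 (adjusted p = 0.086). Of the leave-one-out fits, Npat passed only in those without WT vehicle mouse 1 (adjusted p = 0.00469), WT DOX mouse 21 (0.0317) or KO DOX mouse 18 (0.0449). It also missed in the fit of the WT groups alone (0.131), without the libraries high in atrial transcripts (0.0606) and with length and GC content taken out (0.0507). Mcm4, 466 bases from Prkdc, had 0.40 (adjusted p = 0.118), Hscb, 202 bases from Chek2, had -0.40 (adjusted p = 0.0682), and Ankrd49 beside Mre11a had 0.06 (adjusted p = 0.745). Among members that did not pass, the neighbours of Xrcc3 (Zfyve21, log2 -0.49, adjusted p = 0.0192) and Apex1 (Osgep, -0.58, adjusted p = 0.0245) fell. The other neighbours that could be tested did not pass, among them Dctn5 (-0.34, adjusted p = 0.0553) beside Palb2, which had 0.70. Tex14, Ccnb1ip1 and Pinlyp, beside Rad51c, Parp2 and Xrcc1, had too few counts to be tested.

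In the KO-labelled hearts 0 of 38 members passed for DOX against vehicle by edgeR, where 0.0136% of all genes did. None passed under DESeq2 or limma-voom either, and 2 members (5.26%) had an unadjusted p below 0.05, against 5.35% of all genes. The members' median log2 change was 0.02 (all genes 0.01), and in 9 members (23.7%) the groups did not overlap, against 16.3% of all genes. Mre11a had the smallest p. It stood at 9.12, 9.70 and 9.47 CPM in KO vehicle and at 11.8, 11.1 and 12.0 CPM in KO DOX mice (log2 0.30, SE 0.10, adjusted p = 0.614). Trp53bp1 had 23.2, 23.0 and 25.0 CPM against 30.0, 30.4 and 28.5 CPM (log2 0.32, SE 0.13, adjusted p = 0.819). In both genes every DOX library lay above every vehicle library. Mutyh, next by p, had 1.06, 1.32 and 1.11 CPM against 1.58, 1.46 and 1.81 CPM (log2 0.47, adjusted p = 0.997).

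The genes that moved in WT hearts were spread as follows in the KO-labelled ones. Chek2 had 2.59, 1.92 and 3.16 CPM with vehicle and 2.48, 2.60 and 3.20 CPM with DOX (log2 0.11, 95% interval -0.39 to 0.62). Atm had 5.51, 6.11 and 5.89 CPM with vehicle and 6.58, 7.50 and 6.82 CPM with DOX (log2 0.26, 95% interval -0.37 to 0.88). Prkdc had 10.6, 10.7 and 10.2 CPM with vehicle and 12.2, 11.9 and 10.8 CPM with DOX (log2 0.15, adjusted p = 0.997). Atm and Prkdc did not overlap between these groups, and Chek2 did. H2afx had 3.95, 4.00 and 4.52 CPM with vehicle and 3.39, 3.88 and 3.28 CPM with DOX. Every DOX library lay below every vehicle library, as in WT hearts, without passing the test. Lig3 had 22.3, 22.5 and 21.6 CPM against 21.8, 20.6 and 20.7 CPM. Ercc2 had 13.6, 13.4 and 13.9 CPM against 12.8, 15.3 and 14.1 CPM. Fance had 7.07, 6.49 and 6.91 CPM against 6.85, 5.93 and 6.09 CPM. In these 3 the groups overlapped. Atr had 14.2, 11.8 and 12.7 CPM with vehicle and 14.8, 13.5 and 14.8 CPM with DOX. Chek1 had 0.684, 0.377 and 0.384 CPM against 0.512, 0.512 and 0.501 CPM. Both kinase genes of the replication checkpoint overlapped. Brca1 had 0.228, 0.226 and 0.299 CPM against 0.473, 0.183 and 0.308 CPM. Fancd2 had 0.304, 0.226 and 0.0853 CPM against 0.394, 0.220 and 0.385 CPM. These also overlapped, at a handful of counts a library.

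**Figure D4:**
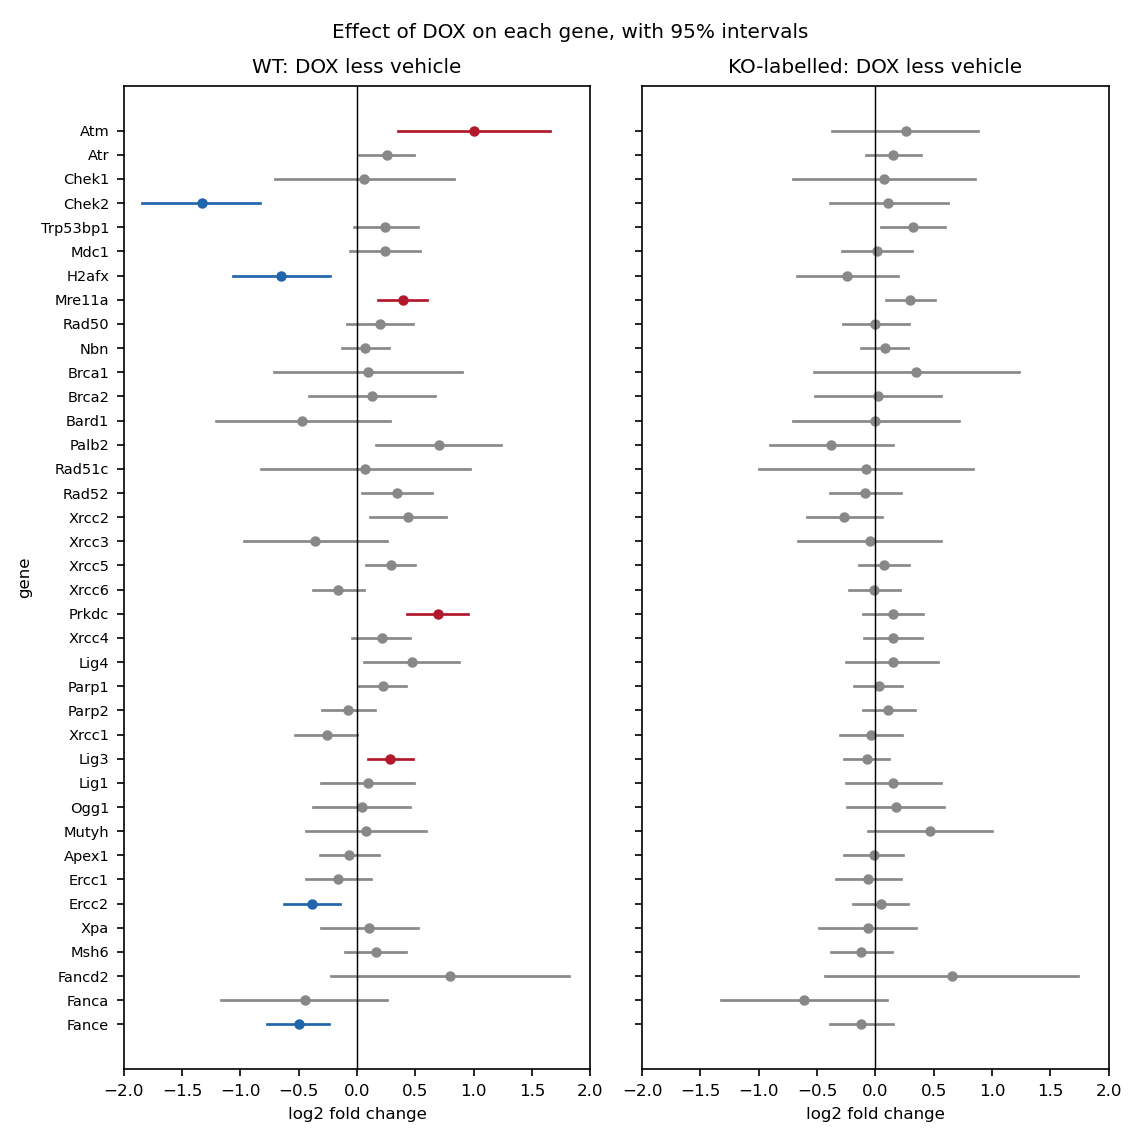
Log2 fold change of DOX less vehicle for each of the 38 genes with its 95% interval, in WT hearts on the left and KO-labelled hearts on the right. Red marks genes that rose, blue genes that fell and grey genes that did not pass. There are 8 coloured genes on the left and 0 on the right.

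Whether the DOX effect differed between the genotypes was tested directly. No member passed by edgeR, where 0.21% of all genes did, and 7 of 38 (18.4%) had an unadjusted p below 0.05, against 16% of all genes. DESeq2 called 1 member, Chek2, and limma-voom called 5. Both also called more of all genes than the 0.21% of edgeR (counts at the end). Chek2 had the smallest p, with a DOX effect in KO-labelled hearts less that in WT hearts of log2 1.45 (SE 0.33, 95% interval 0.73 to 2.16, adjusted p = 0.103). Over 9 other settings its adjusted p ran from 0.00376 to 0.194, and it passed in 1 of 12 leave-one-out fits, that without WT DOX mouse 21 (adjusted p = 0.0254), with adjusted p-values up to 0.263 in the others. Xrcc2 had -0.71 (SE 0.21, adjusted p = 0.187) and Prkdc -0.54 (SE 0.17, adjusted p = 0.2). Palb2, chosen after its values were seen, was the 1 member whose groups did not overlap in opposite directions. It had 0.490, 0.587 and 0.675 CPM in WT vehicle, 1.01, 0.837 and 1.01 CPM in WT DOX, 1.03, 0.981 and 0.811 CPM in KO vehicle and 0.709, 0.768 and 0.694 CPM in KO DOX mice (difference -1.07, SE 0.35, adjusted p = 0.207).

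Under vehicle, Parp1 was the member that differed between the labelled genotypes. It stood at 62.7, 51.6 and 60.5 CPM in KO vehicle hearts against 48.8, 42.6 and 42.4 CPM in WT vehicle hearts, without overlap, and was higher by log2 0.39 (SE 0.09, adjusted p = 0.0495). That is 1 of 38 members (2.63%), against 2.88% of all genes in either direction and 1.79% higher. The call passed in 2 of 12 leave-one-out fits, without WT vehicle mouse 1 (adjusted p = 0.0117) or WT DOX mouse 21 (0.0446), and its adjusted p reached 0.163 without KO vehicle mouse veh_3395. It was lost when any of the other 10 libraries was left out. In 15 members (39.5%) the 2 groups did not overlap, against 31.3% of all genes, and 13 had an unadjusted p below 0.05 (34.2%, all genes 26%). Ercc1, the nuclease partner of XPF, stood at 22.8, 19 and 18.8 CPM in KO vehicle hearts, against 22.7, 33.0 and 29.0 CPM in WT vehicle mice 1, 2 and 3, so that veh_3393 overlapped mouse 1 (log2 -0.48, SE 0.13, adjusted p = 0.0584). Chek2 (log2 -0.86, SE 0.23, adjusted p = 0.0595), Mre11a (0.34, SE 0.10, adjusted p = 0.0652), Xrcc1 (-0.42, adjusted p = 0.0686) and Atm (0.91, SE 0.30, adjusted p = 0.0935) had no overlap. DESeq2 called 5 members, Atm and Parp1 higher and Chek2, Xrcc1 and Ercc1 lower, and limma-voom called 17. Both also called more of all genes than the 2.88% of edgeR, and those counts are given at the end. This comparison shares the WT vehicle libraries, mouse 2 among them, with that of DOX in WT hearts.

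Under DOX, 0 of 38 members differed between the labelled genotypes by edgeR (all genes, 0.42%), and none did under DESeq2 or limma-voom. An unadjusted p below 0.05 was found for 5 (13.2%, all genes 15.5%), and in 10 (26.3%) the groups did not overlap, against 19.6% of all genes. Ercc1 had the smallest p, at 18.9, 19.7 and 19.5 CPM in KO DOX against 24.6, 26.1 and 25.1 CPM in WT DOX mice (log2 -0.38, SE 0.13, adjusted p = 0.19). Mre11a had 0.26 (SE 0.10, adjusted p = 0.223). Rad52 stood at 6.77, 6.04 and 6.59 CPM in KO DOX mice, all below the WT DOX values (log2 -0.35, SE 0.14, adjusted p = 0.253). In KO vehicle mice it had 7.30, 6.00 and 7.34 CPM. Xrcc2 stood at 6.23, 8.19 and 9.26 CPM in KO vehicle and at 6.74, 5.96 and 6.94 CPM in KO DOX mice. The KO DOX values of Xrcc2 lay below all 3 of WT DOX (log2 -0.34, adjusted p = 0.293). Parp1 had 56.9, 59.6 and 61.4 CPM in KO DOX mice, above all WT DOX values (log2 0.20, adjusted p = 0.34).

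A further 108 repair and signalling genes were listed, of which 101 could be tested. For DOX in WT hearts 17 of 101 passed (16.8%), against 18.6% of all genes, with 11 higher, 6 lower and a median log2 change of 0.03. The share was thus near the background here too. The count was lower without any of 4 of the WT libraries: 1 passed without WT vehicle mouse 2 (Uvssa), 3 without mouse 3, 1 without WT DOX mouse 22 (Rev1) and 0 without mouse 24, while 23 passed without WT vehicle mouse 1. With exon length and GC content taken out, 7 of 101 passed. Fewer of all genes passed in that fit too. The all-gene count also changed widely when 1 library was left out (counts at the end). Among the higher were Wee1, the kinase that holds cells before mitosis (log2 0.73, adjusted p = 0.0175), and the chromatin ubiquitin ligase gene Rnf168 (0.31, adjusted p = 0.0447). In nucleotide excision repair Uvssa (0.76, adjusted p = 0.0172), Ddb1 (0.53, adjusted p = 0.0175) and Rad23b (0.41, adjusted p = 0.0202) rose. Gtf2h4, a TFIIH subunit gene outside the naming rule, fell (-0.48, adjusted p = 0.0321). Slx4 (0.43), Mlh3 (0.41), Parg (0.50), Rev1 (0.41) and Rad18 (0.92) also rose, with adjusted p-values up to 0.0492. The lower genes included 2 base excision glycosylase genes, Ung (log2 -1.01, from 18.8 ± 3.66 to 9.34 ± 4.27 CPM, SD, n = 3) and Neil1 (-0.55), with adjusted p-values of 0.0317 and 0.0211. Mgmt, which strips alkyl groups from guanine (-0.86, adjusted p = 0.0226), the end-joining polymerase gene Poll (-0.48) and Rpa3, a subunit of the single-strand binding protein (-0.72), fell as well.

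In the KO-labelled hearts 0 of these 101 passed for DOX by edgeR, and 3 had an unadjusted p below 0.05. Between the genotypes under vehicle 4 of 101 passed (3.96%, all genes 2.88%), against 1 without WT vehicle mouse 2 and 13 without mouse 1. The all-gene count of this comparison also changed widely when 1 library was left out (range at the end). Wee1, which passed without WT vehicle mouse 1 and without mouse 2, was higher in KO vehicle hearts. It stood at 20.9 ± 1.96 CPM against 7.11 ± 1.68 CPM in WT vehicle hearts (SD, n = 3; log2 1.56, SE 0.16, adjusted p = 0.000947). Mlh3 and Rev1 were higher by log2 0.54 each, and Swi5, a recombination accessory gene, was lower (log2 -0.43, adjusted p = 0.0413). Under DOX none of the 101 differed between the genotypes by edgeR, with 12 (11.9%) at an unadjusted p below 0.05, against 15.5% of all genes. None passed for the interaction by edgeR, where 21 (20.8%) had an unadjusted p below 0.05, against 16% of all genes. DESeq2 called Wee1 for the interaction, as did the fits without TMM scaling, with length and GC content taken out, and with the filter of 1 CPM in 3 libraries. It was also called without KO DOX mouse 18, without a filter (with Uvssa) and without WT DOX mouse 21 (with Rpa3), and limma-voom called 15 genes, Wee1 among them. For KO against WT under DOX limma-voom called 3, the fit without a filter Paxx and Polq, and that without WT DOX mouse 21 Fen1 and Rpa3. In both comparisons limma-voom also called more of all genes than edgeR did.

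Markers of other cell types moved with the WT comparison. Endothelial markers summed to 954 to 1120 CPM in WT vehicle libraries, 638 to 788 CPM in WT DOX, 668 to 739 CPM in KO vehicle and 681 to 853 CPM in KO DOX libraries, and 6 of 10 fell after DOX in WT hearts. None of the 10 was at 0 in any library. Neutrophil markers summed to 2 to 3.45 CPM in WT vehicle, 8.63 to 36.6 CPM in WT DOX, 6.78 to 10.3 CPM in KO vehicle and 3.94 to 5.55 CPM in KO DOX libraries, and 5 of 5 rose in WT hearts. Cxcr2 was at 0 in WT vehicle mouse 2. Erythroid markers summed to 50.8 to 172 CPM in WT vehicle and 0.144 to 0.395 CPM in WT DOX libraries, where Hba-a2 and Hbb-bt were at 0, and 5 of 5 fell. They summed to 46.5 to 253 CPM in KO vehicle libraries, and to 0.709, 213 and 60.7 CPM in KO DOX mice 18, 19 and 20, with Hba-a2 and Hbb-bt at 0 in mouse 18. Fibroblast (602 to 1180 CPM over all libraries), macrophage (80.4 to 228 CPM), smooth muscle (93.6 to 383 CPM), T cell (0.576 to 1.32 CPM) and B cell (0.226 to 2.14 CPM) markers had no gene past the threshold for DOX in WT hearts. Of the last 2 lists, only 1 T cell marker and 0 B cell markers could be tested. Of 8 cardiomyocyte markers 1 fell, and their sum was 72700 to 81300 CPM in WT vehicle and 60500 to 71100 CPM in WT DOX libraries. None of 4 atrial markers passed. The part of any of these cells in the results for the repair genes was not tested. Without the 2 libraries high in atrial transcripts, 5 of 38 members passed for DOX in WT hearts: Mre11a and Prkdc higher, and Chek2, Ercc2 and Fance lower. The share of all genes in that fit is not given here, so this count is not set against a background.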

How the data were processed

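The authors deposited raw counts, as whole numbers for every gene symbol, for each of 12 poly(A) RNA libraries. The submitters' processing notes name Subread 1.6.4 with featureCounts, STAR 2.7.0f and fastp 0.20.0. The sources used here do not say which build, annotation or strand setting was used, nor how reads that match several places were treated. Library totals ran from 23846398 to 32921876 counts, and the biological coefficient of variation was 17.5%.

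Low genes were removed with filterByExpr by group, and library sizes were scaled by TMM. All 12 libraries entered 1 model with a mean for each group (edgeR 4.0.16 in R 4.3.3), so the groups share an estimate of spread. Each comparison was a quasi-likelihood test, adjusted by the Benjamini-Hochberg method over 14757 genes, with a threshold of 0.05. CPM use TMM-scaled totals, and the plotted log2 values add 0.5. Exon length, GC content and positions came from GENCODE M21 (GRCm38), matched by symbol for 98.3% of symbols, and promoters from RefSeq. The test was tried on simulated counts. Each replicate is a mouse with its own number in the titles.

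The members and gene lists were chosen with earlier results of these data known. Values in every library are given for each member that passed in any comparison, the 3 with the smallest p in each, and Atm, Atr, Chek1, Brca1, Prkdc, Parp1, Fancd2, H2afx and Trp53bp1. Other repair genes were named as up to 3 per role with the smallest p among those that passed. Alternatives were another scaling (DESeq2's size factors, or library totals alone), testing every gene or only those with 1 CPM in 3 libraries, DESeq2 1.42.0, limma-voom 3.58.1 with sample weights, the 2 groups compared fitted alone, a covariate for the suffix 1 that some titles carry, leaving out each library, and leaving out 2 libraries high in atrial transcripts. The suffix is missing from the titles of WT vehicle mice 2 and 3, WT DOX mouse 21 and KO vehicle mouse veh_3393, so it is uneven over the groups. Taking out exon length and GC content was chosen after seeing the data.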

Additional observations from a re-analysis of the deposited data

How the results depend on the processing

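No member changed sign in a comparison where it passed by edgeR or under the alternative itself. Members that passed in neither did: for DOX in WT hearts 0 to 7 of 38 took the other sign, with most when exon length and GC content were taken out, where Atr went from 0.26 to -0.08, Brca1 from 0.09 to -0.12, Chek1 from 0.06 to -0.03 and Ercc1 from -0.16 to 0.02. The number was 0 to 9 for DOX in KO-labelled hearts, 0 to 8 for KO against WT under vehicle (with length and GC taken out Trp53bp1 went from 0.04 to -0.19), 0 to 6 under DOX and 0 to 9 for the interaction. For DOX in WT hearts (8 members) the count was 4 without a filter, 13 with limma-voom, 0 in a fit of the 2 groups, 5 with the title suffix as a covariate, 5 without the 2 atrial-high libraries, 2 with exon length and GC content taken out, and 1 to 12 when 1 library was left out (12 without WT vehicle mouse 1, 2 without mouse 2 or 3, 1 without WT DOX mouse 22 or 24). For KO against WT under vehicle (1 member) it was 0 with DESeq2's size factors, 3 without a filter, 5 with DESeq2, 17 with limma-voom, 0 in a fit of the 2 groups, with the suffix, without the atrial-high libraries or with length and GC taken out, and 0 to 9 when 1 library was left out. The interaction (0 members) had 1 without a filter, 1 with DESeq2, 5 with limma-voom and 0 to 1 when 1 library was left out. DOX in KO-labelled hearts and KO against WT under DOX had 0 members under each alternative run. The fits of 2 groups and those that left out a library used fewer libraries, and the cause of the other changes was not tested.

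Over all genes, DOX in WT (2743) gave 5575 with limma-voom, 20 in a fit of the 2 groups, 1595 with the suffix, 1593 with length and GC taken out and 183 to 4188 when 1 library was left out, and without TMM scaling 1845 were higher and 941 lower, against 1386 and 1357. DOX in KO (2) gave 309 without a filter, 66 with DESeq2, 88 with limma-voom, 1 without the atrial-high libraries or with length and GC taken out, 0 without TMM scaling, in a fit of the 2 groups or with the suffix, and 0 to 4 when 1 library was left out. KO against WT under vehicle (425) gave 2088 without a filter, 1639 with DESeq2, 5186 with limma-voom, 222 in a fit of the 2 groups, 211 with the suffix, 68 without the atrial-high libraries and 42 to 2670 when 1 library was left out. Under DOX (62) these were 1152, 473, 990, 5, 71, 24 and 8 to 727, and for the interaction (31) 1093, 366 and 2048 for the first 3, 51 without TMM scaling, 52 with length and GC taken out, 2 without the atrial-high libraries and 0 to 515 when 1 library was left out. No paired analysis was possible because the groups share no mouse numbers. Depth limits the members with few counts: Fancd2, with 2 to 17 a library, had a 95% interval of -0.22 to 1.82 for DOX in WT hearts.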
